A study of Homo sapiens with 16 samples.

Results

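The intercellular adhesion molecules ICAM1 to ICAM5 and the vascular cell adhesion molecule VCAM1 were followed through RNA sequencing of U87 tumours grown in mouse brains. The genes were taken by symbol from the expression tables of 2 experiments. The family was chosen by the log2 difference of ICAM1 between the groups, which was known from these same tumours. Of the 6 symbols, 3 had a row in each table, ICAM1, ICAM3 and ICAM5, among 17318 genes in the first and 18168 in the second. ICAM2, ICAM4 and VCAM1 had no row in either by symbol or Ensembl identifier and were not analysed here. U87 is an established human glioblastoma line, here carrying luciferase, and it was implanted orthotopically in nude mice, which lack thymus-derived T cells and keep B, NK and myeloid cells. All animals received exosomes of MSC, the labels' name for mesenchymal stromal cells, so no group was free of exosomes. In experiment 1 they carried a first siRNA against human MYC (Myc1, n = 3) or a first scramble siRNA (Scr1, n = 4), and in experiment 2 a second MYC siRNA (Myc2, n = 5) or a second scramble siRNA (Scr2, n = 4). In experiment 1 dosing began on day 28, with 1e9 exosomes in 100 µl given retro-orbitally every other day. The dosing of experiment 2 and the age of the mice are not in the labels. Each of the 16 libraries came from the tumour of its own mouse, taken at euthanasia and labelled wild type, and all are the same cell line.

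ICAM proteins are members of the immunoglobulin superfamily that sit in the plasma membrane and are bound by integrins of leukocytes, above all the pairing of ITGAL with ITGB2. ICAM1 is present at a low level on many cells and is induced by TNF, interleukin-1 and interferon gamma, in large part through NF-kB, and it holds leukocytes at inflamed vessels and on tumour cells. ICAM5, also called telencephalin, is known from dendrites of forebrain neurons, where it takes part in spine maturation, and ICAM3 is known from resting leukocytes. ICAM2 is found on endothelium, ICAM4 carries the Landsteiner-Wiener blood group on red cells, and VCAM1 is an endothelial ligand of ITGA4 paired with ITGB1.

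The promoters of ICAM1 and ICAM5 are shown because these genes are near neighbours whose RNA averaged higher in Myc than in Scr tumours in each experiment. RefSeq orders the protein-coding genes of this stretch of chromosome 19 as MRPL4, ICAM1, ICAM4, ICAM5, ZGLP1, FDX2, RAVER1, ICAM3 and TYK2. The 250 bases before each start lie at chr19:10270870-10271119 for ICAM1 and chr19:10289702-10289951 for ICAM5, plus strand, in RefSeq's GRCh38.p14, and capitals mark motif matches.
ICAM1: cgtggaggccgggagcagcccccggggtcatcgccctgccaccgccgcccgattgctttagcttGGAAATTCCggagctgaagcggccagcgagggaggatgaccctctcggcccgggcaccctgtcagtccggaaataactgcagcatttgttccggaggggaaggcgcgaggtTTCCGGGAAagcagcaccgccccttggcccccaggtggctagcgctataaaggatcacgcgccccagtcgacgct
ICAM5: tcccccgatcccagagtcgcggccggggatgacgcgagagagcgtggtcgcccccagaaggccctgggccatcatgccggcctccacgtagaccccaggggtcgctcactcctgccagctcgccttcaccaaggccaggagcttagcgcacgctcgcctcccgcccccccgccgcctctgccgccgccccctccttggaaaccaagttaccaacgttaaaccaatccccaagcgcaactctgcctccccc
The ICAM1 window held GGAAATTCC at bases -186 to -178 from the start, a match to GGANNTTCC, an NF-kB-like pattern. It also held TTCCGGGAA at -75 to -67, a match to TTCNNNGAA, the STAT-type motif. The ICAM5 window held no match to these on either strand. Neither window held TGANTCA (the AP-1 motif) or the NF-kB consensus, which was searched by name. That consensus does not cover GGAAATTCC, so its absence does not show that a window lacks an NF-kB site. Among 35116 RefSeq promoters of this length, 3.84% held GGANNTTCC, 6.57% TTCNNNGAA, 6.57% TGANTCA and 5.21% the NF-kB consensus. The GC content was 66% for ICAM1 and 68.8% for ICAM5.

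Levels are given as CPM (read counts put on a shared library total). They were taken back from deposited log2 CPM, quantile-normalized by table, so tumours were compared only within an experiment. The shallowest library of experiment 1, Scr1 replicate 3, had an estimated 3.36 M reads and the deepest 24.0 M. In experiment 2 the estimates lay between 10.1 M (Scr2 replicate 4) and 31.0 M. Scr2 replicates 1 and 4 stood apart on the first principal component of experiment 2, at -63.4 and -94.4 against 2.74 to 47.6 for the other 7 libraries. MYC itself ranged from 14.3 to 38.1 CPM in Myc1 and from 21.2 to 108 CPM in Scr1 tumours, a log2 difference of -0.83. In the libraries labelled Myc2 it ranged from 42.3 to 72.1 CPM and in those labelled Scr2 from 25.9 to 47.1 CPM, a log2 difference of 0.57 that goes against the label. Myc2 and Scr2 below therefore stand for the libraries so labelled, and each direction given for experiment 2 rests on those labels. The U87 markers VIM, CD44, NES, TNC, CHI3L1 and EGFR were present in every library, at a summed 6727 to 8433 CPM in Myc1, 6752 to 8017 CPM in Scr1, 6949 to 9235 CPM in Myc2 and 4847 to 8083 CPM in Scr2. CDKN2A, which this line has lost, had no row.

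ICAM1, the inducible ligand of leukocyte integrins (ENSG00000090339), was a low-level transcript that averaged higher in Myc than in Scr tumours in each experiment, with overlapping groups. ICAM1 stood at 3.44, 0.847 and 3.23 CPM in Myc1 tumours and at 0.308, 0.962, 0.432 and 1.19 CPM in Scr1 tumours. Myc1 replicates 1 and 3 were above every Scr1 tumour, and Myc1 replicate 2 lay among them. The Myc1 mean was 1.08 ± 1.14 log2 CPM (SD, n = 3) and the Scr1 mean -0.68 ± 0.92 (SD, n = 4). The log2 difference was 1.76 ± 0.66 (SE) with a 95% interval of 0.34 to 3.17, a size that 0.696% of the 13933 genes tested reached in either direction. It is a description with no test, because the genes were chosen with such differences known.

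In experiment 2, ICAM1 stood at 0.820, 2.41, 0.758, 4.63 and 2.45 CPM in Myc2 tumours and at 2.16, 0.116, 0.469 and 0.0958 CPM in Scr2 tumours. Of the Scr2 tumours, 3 were below every Myc2 tumour, and Scr2 replicate 1, one of the libraries that stood apart, lay between Myc2 replicates 1 and 2. The means were 0.82 ± 1.13 log2 CPM in Myc2 (SD, n = 5) and -1.62 ± 2.09 in Scr2 (SD, n = 4), a log2 difference of 2.44 ± 0.91 (SE) with a 95% interval of 0.45 to 4.42. Of 14208 genes, 0.274% differed by as much in either direction. That share is a description only, because the family was chosen by the ICAM1 difference in these tumours. Without Scr2 replicates 1 and 4 the ICAM1 difference was 2.92. On the log2(CPM + 1) scale, which understates low genes, it was 0.95 in experiment 1 and 0.92 in experiment 2, so its size depends on how low values are treated.

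The reads behind ICAM1 were few, which limits single tumours. The ranked value steps of each library put ICAM1 at 51, 18 and 74 reads in Myc1 tumours and at 5, 18, 1 and 21 reads in Scr1 tumours. The 18 reads of Myc1 replicate 2 have an exact Poisson 95% interval of 10.7 to 28.4, which covers counting error only, and the 1 read of Scr1 replicate 3, the shallowest library, one of 0.0253 to 5.57. Counting error therefore leaves the place of Scr1 replicate 3 in its group uncertain. Experiment 2 gave 15, 34, 21, 99 and 45 reads in Myc2 tumours and 36, 2, 9 and 0 reads in Scr2 tumours. The 0.0958 CPM of Scr2 replicate 4 is the value listed for 0 reads. The exact Poisson 95% interval of that count reaches 3.69 reads, and in that library 3 reads would be 0.296 CPM. A log2 difference fitted over a value for 0 reads depends on what was added to 0 and is no bound. GENCODE 29 places 2 antisense genes, AC011511.2 and AC011511.5, over ICAM1 on the opposite strand; whether counting used strand is not given in the sources used here, so their reads and those of ICAM1 cannot be told apart.

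ICAM5 (ENSG00000105376), the neuronal member of the family, also averaged higher in Myc than in Scr tumours in each experiment, with less overlap of the groups. ICAM5 stood at 2.52, 1.81 and 6.77 CPM in Myc1 tumours and at 0.736, 1.69, 0.694 and 1.47 CPM in Scr1 tumours. Every Myc1 tumour was above every Scr1 tumour, although Myc1 replicate 2 and Scr1 replicate 2 were close, at 39 reads (interval 27.7 to 53.3) and 33 reads (22.7 to 46.3). ICAM5 was thus 1 of 3 measured members whose groups did not overlap, where 4.21% of all genes tested had groups that did not overlap, 1.94% with Myc1 higher and 2.27% with Myc1 lower. The means were 1.65 ± 0.99 log2 CPM in Myc1 (SD, n = 3) and 0.09 ± 0.66 in Scr1 (SD, n = 4), a log2 difference of 1.56 ± 0.55 (SE) with a 95% interval of 0.39 to 2.74. Without Myc1 replicate 3 the difference was 1.01.

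In experiment 2, ICAM5 stood at 3.68, 15.4, 1.45, 6.81 and 6.10 CPM in Myc2 tumours and at 0.353, 0.918, 1.70 and 0.228 CPM in Scr2 tumours. The groups overlapped by a single tumour in each, Myc2 replicate 3 lying just below Scr2 replicate 3, and the other 4 Myc2 tumours were above all Scr2 tumours. None of the 3 measured members had groups without overlap here, against 3.01% of all genes, 1.4% with Myc2 higher and 1.61% with Myc2 lower. The means were 2.35 ± 1.25 log2 CPM in Myc2 (SD, n = 5) and -0.75 ± 1.31 in Scr2 (SD, n = 4). The log2 difference was 3.10 ± 0.72 (SE), with a 95% interval of 1.52 to 4.67. It ranked ICAM5 at place 13 of 14208 genes by size, and 0.0915% of genes differed by as much. Rank and share are descriptions only, because the family was chosen with such differences known. Reads ran from 39 to 200 in Myc2 tumours and from 1 to 34 in Scr2 tumours. The 2 Scr2 tumours with the least ICAM5, replicates 1 and 4 at 5 reads and 1 read, were the libraries that stood apart, and without them the difference was 2.03. On the log2(CPM + 1) scale it was 1.89, and 1.02 in experiment 1.

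ICAM3 (ENSG00000076662), the leukocyte member, was per length the most abundant of the measured genes, and the sign of its difference was not the same in the 2 experiments. ICAM3 stood at 27.9, 28.4 and 36.1 CPM in Myc1 tumours and at 22.3, 22.0, 33.3 and 22.9 CPM in Scr1 tumours. Scr1 replicate 3 lay within the Myc1 range and the other Scr1 tumours below it. The log2 difference of 0.31 ± 0.25 (SE) had a 95% interval of -0.23 to 0.84. Experiment 2 gave 18.1, 25.6, 17.2, 16.8 and 24.6 CPM in Myc2 tumours and 30.3, 16.9, 19.6 and 49.8 CPM in Scr2 tumours. The highest were Scr2 replicates 4 and 1, and the other Scr2 tumours lay inside the Myc2 range. The log2 difference there was -0.40 ± 0.30 (SE) with a 95% interval of -1.06 to 0.26, and without these libraries it was 0.14. In GENCODE 29, ICAM3 is overlapped by AC114271.1 on the opposite strand, so the reads of these genes cannot be told apart either.

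No gene passed an adjusted p of 0.05 in limma in either experiment, so 0 of the 3 measured members did, where 0% of genes were called in experiment 1 and 0% in experiment 2. At an unadjusted limma p under 0.05 there were 485 of 13933 genes in experiment 1 and 1898 of 14208 in experiment 2. A fit of fewer tumours, without Scr2 replicates 1 and 4, had 509 such genes. All 3 members had positive differences in experiment 1, against 49.5% of all genes, and 2 of 3 in experiment 2, against 48.2%. ICAM1 and ICAM5, 2 of 3 members, had log2 differences of 1 or more in each experiment, against 2.02% of genes in experiment 1 and 4.33% in experiment 2. The family was chosen with such differences known, so nothing is read from these shares. The median difference over all genes was near 0 in each, at -0.0028 and -0.018. All 3 passed the filter on low values, but ICAM1 only just: 1 CPM was reached in 2 of 3 Myc1 and 1 of 4 Scr1 tumours, and in 3 of 5 Myc2 and 1 of 4 Scr2 tumours, exactly the 3 and 4 libraries needed. ICAM5 reached 1 CPM in 3 of 3 Myc1 and 2 of 4 Scr1 tumours, and in 5 of 5 Myc2 and 1 of 4 Scr2 tumours, so the Myc tumours alone met the filter in each experiment. A gene that passes mainly through the group where it is high had to differ, so the differences and ranks of ICAM1 and ICAM5 carry that condition.

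**Figure D1:**
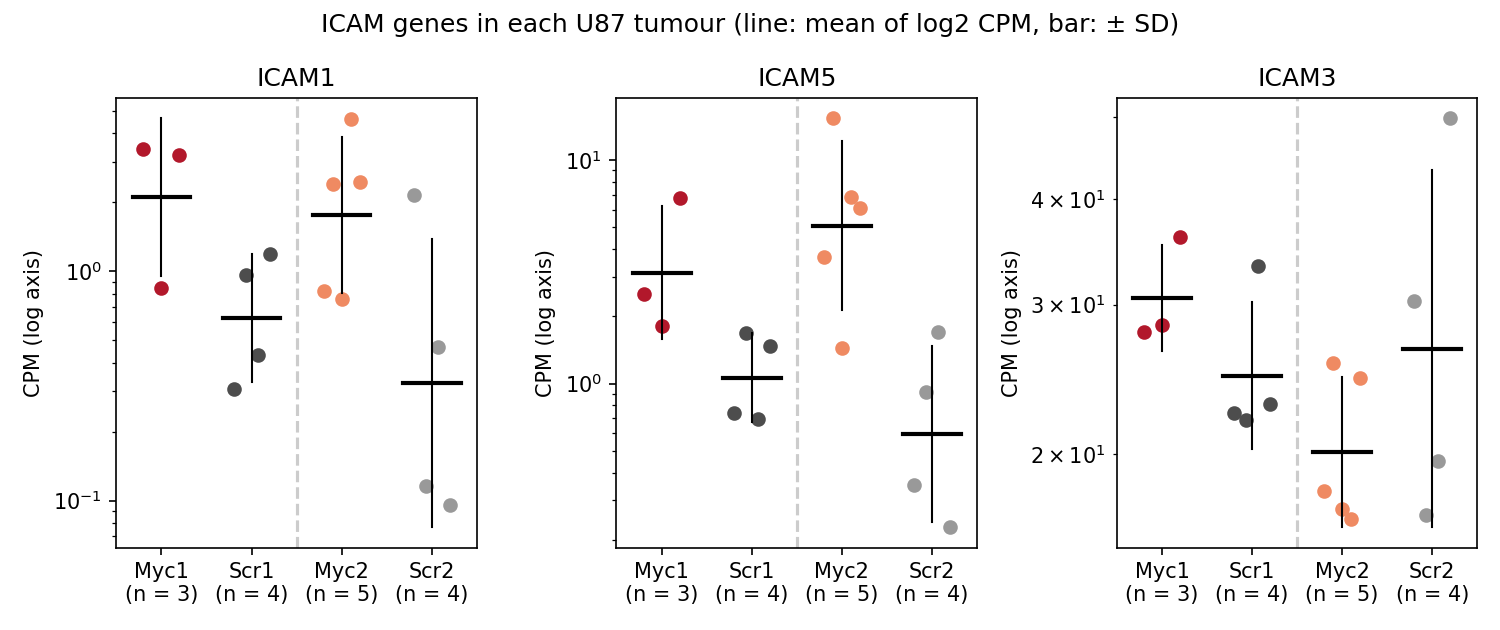
CPM of ICAM1, ICAM5 and ICAM3 in each tumour on log axes, with groups along the horizontal axis and the experiments parted by a dashed line; each point is a tumour, each line the mean of log2 CPM and each bar 1 SD either way. ICAM5 shows no overlap between Myc1 and Scr1 (lowest Myc1 1.81, highest Scr1 1.69 CPM), while ICAM3 groups overlap in both experiments.

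Per kilobase of the longest coding transcript in GENCODE 29, ICAM3 stood well above the other members in every group. Its median was 14.0 CPM per kb in Myc1, 11.2 in Scr1, 8.94 in Myc2 and 12.3 in Scr2 tumours. ICAM1 had medians of 0.992 CPM per kb in Myc1, 0.214 in Scr1, 0.740 in Myc2 and 0.0899 in Scr2 tumours. ICAM5 had medians of 0.840 CPM per kb in Myc1, 0.368 in Scr1, 2.03 in Myc2 and 0.212 in Scr2 tumours. The lowest ICAM3 value of any tumour, 8.28 CPM per kb, was above the highest ICAM5 value, 5.13 CPM per kb. The ranges of ICAM1 and ICAM5 per kb overlapped in every group, although within single tumours ICAM5 was the higher in all but Myc1 replicate 1 and Scr2 replicate 1.

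Tumours of the same group spanned a wider range of ICAM1 and ICAM5 than of ICAM3. The highest tumour exceeded the lowest in ICAM1 by 4.06-fold in Myc1, 3.85-fold in Scr1, 6.11-fold in Myc2 and 22.5-fold in Scr2, the last resting on the tumour with 0 reads. For ICAM5 the span was 3.73-fold in Myc1, 2.43-fold in Scr1, 10.6-fold in Myc2 and 7.46-fold in Scr2. For ICAM3 it was 1.29-fold in Myc1, 1.52-fold in Scr1, 1.53-fold in Myc2 and 2.94-fold in Scr2. The within-group SD of ICAM1 was 1.02 log2 units in experiment 1 and 1.61 in experiment 2, above that of 95.9% and 98.8% of genes, where the median gene had 0.37 and 0.38. That of ICAM5 was 0.81 and 1.28, above 91.9% and 97.5% of genes, and that of ICAM3 0.26 and 0.51, above 21.2% and 70.4%. These shares are not matched for level. Counting error at few reads adds to the SD of ICAM1 and ICAM5, by an amount that was not tested.

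Whether ICAM1 and ICAM5 varied together from tumour to tumour was tested on deviations from the group means, which the group differences do not enter. Each permutation p counts all pairings of these deviations across both groups. Removing the group means ties the deviations of a group together, so each p is approximate. ICAM4, which lies between them, was not analysed here. In experiment 1 the deviations correlated at Pearson r = 0.78 over 7 tumours. The two-sided permutation p was 0.0464, and 0.186 after Benjamini-Hochberg adjustment over 4 tests. Spearman rho was 0.64 (permutation p = 0.139, adjusted 0.278). Without the 2 tumours farthest from the median ICAM1 deviation, Myc1 replicate 2 and Scr1 replicate 1, r was 0.61 (permutation p = 0.292). The relation therefore rested in part on them. With a single tumour left out r stayed between 0.67 and 0.95. The permutation p was above 0.05 in 6 of 7 cases, all but the one without Myc1 replicate 1. In experiment 2, r was 0.31 over 9 tumours (permutation p = 0.421, adjusted 0.493) and rho 0.27 (permutation p = 0.493, adjusted 0.493). Scr2 replicate 1, with 36 reads of ICAM1 and 5 of ICAM5, departed from the rest, and without it alone r was 0.76 (permutation p = 0.0321). Scr2 replicates 1 and 4 were both the farthest from the median and the libraries that stood apart. Without them r was 0.73 over 7 tumours (permutation p = 0.0452). Where 2 tumours of a group remain, as in Scr2 without replicates 1 and 4, their deviations mirror each other and hold only 1 value. The same holds for Myc1 whenever a replicate was left out. Scr2 replicate 1 was itself the tumour that departed, so nothing is read from the p values without it. No adjusted p passed 0.05.

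The ratio of ICAM5 to ICAM1 CPM also varied widely. It was 0.733, 2.14 and 2.10 in Myc1 tumours and 2.39, 1.75, 1.61 and 1.24 in Scr1 tumours, with overlapping ranges. It was 4.49, 6.40, 1.91, 1.47 and 2.49 in Myc2 tumours and 0.164, 7.94, 3.62 and 2.38 in Scr2 tumours. Neither experiment separated the groups by this ratio, and the ratio was below 1 only in Myc1 replicate 1 and Scr2 replicate 1. The deviations of ICAM3 went with neither, at r = -0.07 and 0.005 with ICAM1 and 0.04 and -0.32 with ICAM5 in experiments 1 and 2, given as a description.

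**Figure D2:**
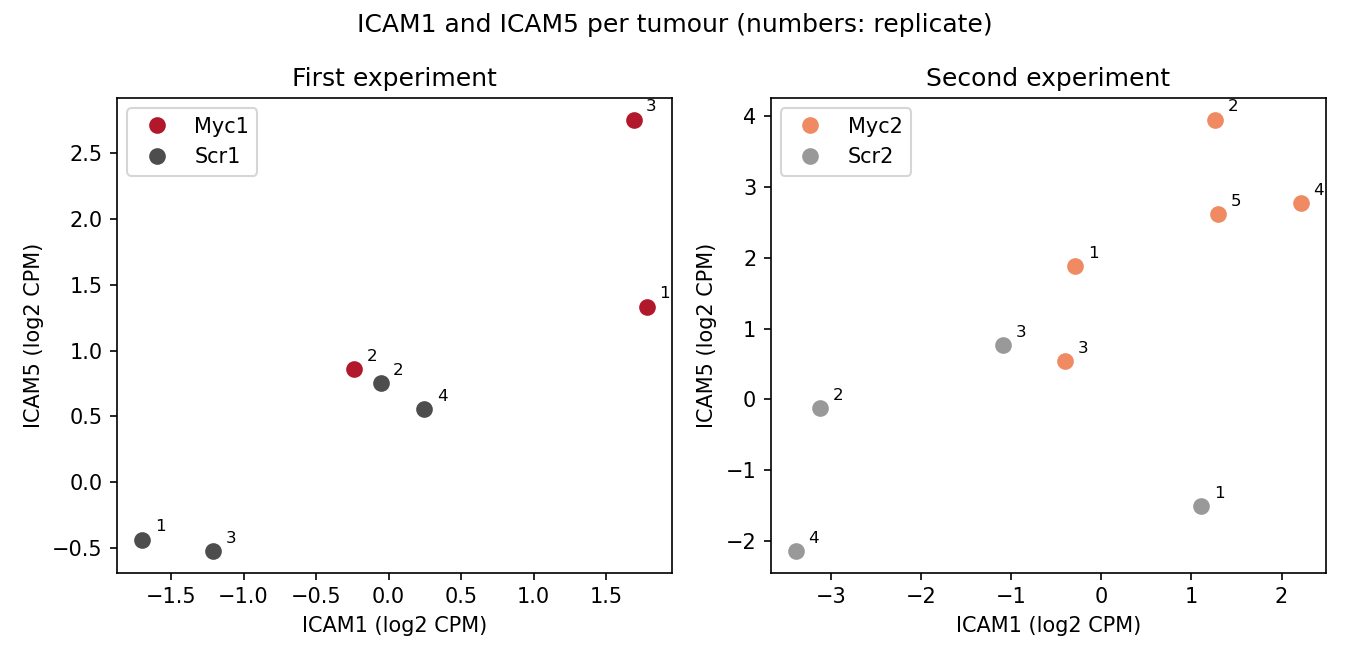
ICAM5 against ICAM1 in log2 CPM for each tumour, experiment 1 on the left and experiment 2 on the right, with replicate numbers beside the points. Most Myc tumours lie to the upper right, and Scr2 replicate 1 departs from the rest, with 2.16 CPM of ICAM1 and 0.353 CPM of ICAM5.

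The genes whose deviations followed each member most closely were ranked by the lower r of the experiments, over 13655 genes and 7 and 9 tumours, as a description with no p. For ICAM1 they were KIAA0040 (r = 0.79 in experiment 1 and 0.80 in experiment 2), the lipoprotein lipase inhibitor ANGPTL4 (0.90 and 0.76), the sorting nexin SNX18 (0.79 and 0.76), the Wnt receptor FZD1 (0.85 and 0.75) and the neutrophil chemokine CXCL1 (0.81 and 0.75). For ICAM5 they were the readthrough transcript PPT2-EGFL8 (0.94 and 0.84), the protein disulfide isomerase P4HB (0.87 and 0.84), the synaptic vesicle protein SV2A (0.83 and 0.84), the neurotensin receptor NTSR1 (0.86 and 0.80) and hexokinase HK2 (0.88 and 0.78). ICAM5 held place 626 in the ranking for ICAM1, and ICAM1 place 809 in that for ICAM5. ICAM3 was followed most closely by RP11-140K17.3 (0.96 and 0.97), the complex I subunit NDUFA11 (0.95 and 0.95), the biliverdin reductase BLVRB (0.96 and 0.95), the cytochrome oxidase assembly factor COA3 (0.97 and 0.95) and the purine synthesis enzyme ADSL (0.99 and 0.95).

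The other genes of the neighbourhood showed no shared direction. Of 8 neighbours tested, 2 had positive differences in experiment 1, with a median of -0.17, and 5 in experiment 2, with a median of 0.20, and none was called. ZGLP1, a zinc finger gene next to ICAM5, had a log2 difference of -0.06 in experiment 1 and 1.25 ± 0.49 (SE) in experiment 2. MRPL4, a mitochondrial ribosomal protein gene on the other side of ICAM1, had -0.17 and -0.34. TYK2, a Janus kinase gene beyond ICAM3, had -0.30 and 0.54. In experiment 1 none of the 8 reached the size of the ICAM1 or ICAM5 difference, the largest being -0.55 for DNMT1.

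Among the cytokines that induce ICAM1, only IL6 passed the filter, and 4 of the 8 listed inducers had rows. IL6 ranged from 3.03 to 30.7 CPM in Myc1 and from 0.872 to 8.10 CPM in Scr1 tumours, a log2 difference of 1.07 ± 1.00 (SE). It ranged from 6.25 to 13.7 CPM in Myc2 and from 1.09 to 11.4 CPM in Scr2 tumours, a difference of 1.26 ± 0.56 (SE). The groups overlapped in each experiment. TNF, IL1A and IL1B had rows in each experiment but did not pass the filter, and their values are not given. IFNG, LTA, LTB and OSM had no row and were not analysed here.

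Of 9 receptors for these inducers, 6 had positive differences in experiment 1 (median 0.06) and 7 in experiment 2 (median 0.31), and none was called. Over all genes tested, groups did not overlap for 4.21% in experiment 1 and 3.01% in experiment 2. IL1R1, the signalling receptor of interleukin-1, was in each experiment the 1 of 9 receptors without overlap. It ranged from 69.0 to 97.0 CPM in Myc1 and from 21.6 to 67.0 CPM in Scr1 tumours, a log2 difference of 1.28 ± 0.35 (SE). It ranged from 47.6 to 109 CPM in Myc2 and from 28.9 to 41.3 CPM in Scr2 tumours, a difference of 0.94 ± 0.25 (SE). OSMR, the oncostatin M receptor, had differences of 0.30 and 1.01 ± 0.22 (SE).

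The transcription factors that act on ICAM1 gave different pictures in the experiments. Of 10 factors, 4 had positive differences in experiment 1 (median -0.05) and 9 in experiment 2 (median 0.53), and none was called. RELA, the main activating NF-kB subunit, had -0.20 in experiment 1 and -0.00 in experiment 2. NFKB2 had -0.01 and 0.84 ± 0.26 (SE). CEBPB and STAT3, which act downstream of the IL6 family, were 2 of 10 factors with groups without overlap in experiment 2, against 3.01% of all genes. No factor had such groups in experiment 1, against 4.21% of all genes. CEBPB ranged from 81.4 to 102 CPM in Myc2 and from 28.0 to 63.7 CPM in Scr2 tumours. The log2 differences in experiment 2 were 1.21 ± 0.22 (SE) for CEBPB and 0.59 ± 0.17 for STAT3, against 0.26 and 0.05 in experiment 1. As for the other genes outside the family, how far these differences rest on Scr2 replicates 1 and 4 is not given.

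Genes that NF-kB is known to induce mostly had positive differences, as ICAM1 did, without passing the test. Of 10 tested among 12 listed, 9 had positive differences in each experiment, with medians of 0.61 and 1.34 against -0.0028 and -0.018 over all genes, and none was called. Part of this list was already known to be higher in these tumours, so its direction is not independent evidence. TNFAIP3, the deubiquitinase that shuts NF-kB signalling off, ranged from 6.70 to 42.0 CPM in Myc2 and from 0.749 to 6.46 CPM in Scr2 tumours, a log2 difference of 2.64 ± 0.66 (SE), and had 0.58 ± 0.44 in experiment 1. CXCL8, the neutrophil chemokine interleukin-8, had 2.37 ± 1.21 (SE) and 2.78 ± 1.13, and CXCL3 had 1.27 ± 0.59 and 1.91 ± 0.65. NFKBIA, the inhibitor that holds NF-kB in the cytoplasm, had 0.63 ± 0.26 (SE) and 0.68 ± 0.24. NFKBIE was the member with negative differences, at -0.16 and -0.19.

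**Figure D3:**
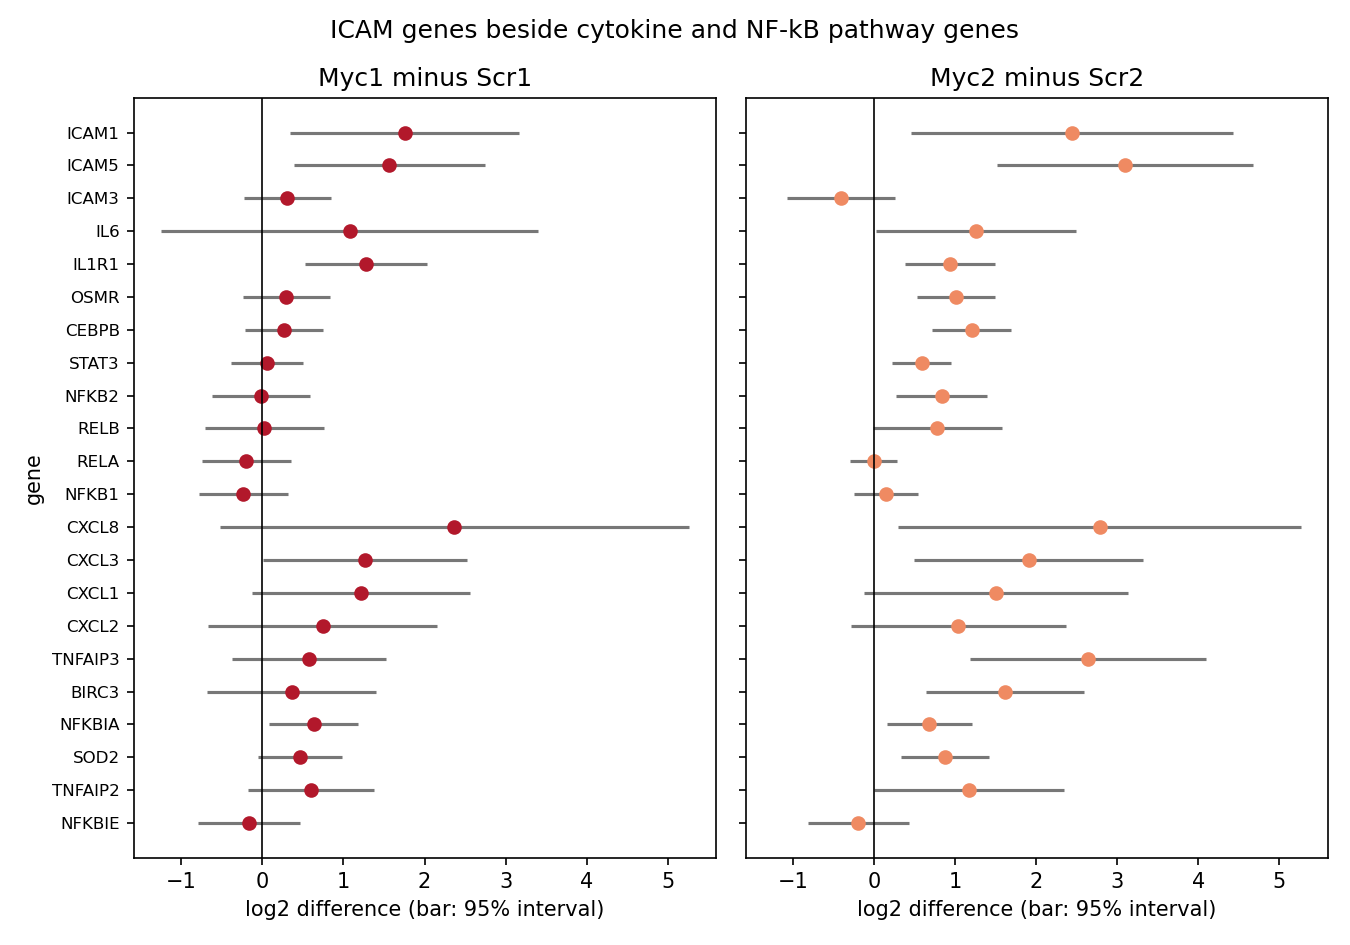
Log2 differences (points) with 95% intervals (bars) for the measured ICAM genes and genes of their induction, Myc1 minus Scr1 on the left and Myc2 minus Scr2 on the right; the vertical line marks 0. ICAM1 and ICAM5 lie right of 0 in both panels (1.76 and 1.56, 2.44 and 3.10), ICAM3 changes side (0.31 and -0.40), and RELA lies near 0 (-0.20 and -0.00).

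The integrins that bind the family were measured only in part. Of 9 partners, 6 had rows in each table, and 3 passed the filter in experiment 1 and 4 in experiment 2, none called. ITGAX, the alpha chain of a myeloid integrin that binds ICAM1, ranged from 2.95 to 23.3 CPM in Myc2 and from 1.12 to 9.93 CPM in Scr2 tumours, a log2 difference of 1.84 ± 0.72 (SE), and had 0.21 ± 0.77 in experiment 1. ITGB2, the shared beta chain, had a difference of 1.37 ± 1.49 (SE) in experiment 2 and no row in experiment 1. ITGB1 had 0.22 and 0.32, and ITGA4 0.20 and -0.50.

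Downstream of the receptors, the linkers of ICAM1 to actin were all slightly lower in Myc1 than in Scr1 by value, and mostly slightly higher in Myc2 than in Scr2. Of 8 linkers, 0 had a positive difference in experiment 1 (median -0.33) and 6 in experiment 2 (median 0.20), none called. The ezrin gene EZR had -0.33 ± 0.21 (SE) and -0.23 ± 0.21, and the filamin gene FLNA, whose product binds the ICAM1 tail, -0.49 ± 0.28 and 0.31 ± 0.33. Of the sheddases that cut ICAM1 from the surface, 3 were tested, with 1 positive in experiment 1 and 3 in experiment 2. The membrane metalloprotease gene MMP14 had -0.29 ± 0.23 (SE) and 0.71 ± 0.21, and ADAM17 had -0.34 ± 0.30 and 0.42 ± 0.21.

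Other adhesion receptors had mixed signs and mostly small differences. Of 16 tested, 10 had positive differences in experiment 1 (median 0.05) and 13 in experiment 2 (median 0.29), none called. The junctional adhesion molecule gene JAM2 had 1.40 ± 0.53 (SE) and 0.87 ± 0.38. F11R, which encodes another junctional adhesion molecule, had -0.54 ± 0.28 (SE) and 1.20 ± 0.44. The laminin receptor gene BCAM had 1.09 ± 0.54 (SE) and 0.58 ± 0.36.

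Markers of other cell types were measured beside these results. The tumour cells are human and the host cells mouse, and the values are per human gene. How mouse reads were handled is not given, so marker values cannot be read as amounts of host cells. RNA of the U87 cells and misassigned mouse reads cannot be told apart in them. Of 9 endothelial markers, 6 had rows in experiment 1 and summed to 10.6 to 25.6 CPM in Myc1 and 3.79 to 9.37 CPM in Scr1 tumours, without overlap. EMCN alone held 6.72 to 22.2 CPM in Myc1 and 1.25 to 5.20 CPM in Scr1 tumours, without overlap. Of all genes tested, 4.21% had groups that did not overlap. VWF ranged lower in Myc1 but with overlap, from 0.544 to 0.883 CPM in Myc1 and from 0.633 to 1.86 CPM in Scr1 tumours. KDR, TEK, ERG and TIE1 also overlapped between the groups. KDR did not exceed 1.32 CPM in any of these tumours, and PECAM1, CDH5 and CLDN5 had no row. In experiment 2, 7 endothelial markers summed to 12.3 to 58.4 CPM in Myc2 and 9.42 to 28.3 CPM in Scr2 tumours. Among them CDH5 had a log2 difference of 2.28 ± 0.91 (SE) and TIE1 of 2.09 ± 1.09, beside 2.44 ± 0.91 for ICAM1, all with overlapping groups, while VWF had 0.03 ± 0.45 and EMCN -0.35 ± 1.25. The part of endothelial cells in the ICAM1 and ICAM5 values was not tested.

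Neuronal markers, which bear on ICAM5, had 3 rows of 7, SYT1, SNAP25 and RBFOX3. They summed to 14.7 to 15.6 CPM in Myc1 and 8.39 to 15.1 CPM in Scr1 tumours, and to 5.15 to 15.6 CPM in Myc2 and 8.09 to 19.5 CPM in Scr2 tumours. The ranges overlapped in each experiment, and the part of neurons in the ICAM5 values was not tested. RBFOX3 stayed at or below 0.417 CPM in Myc1, 0.633 in Scr1, 1.03 in Myc2 and 0.413 in Scr2 tumours, and SLC17A7, NEUROD6, STMN2 and GRIN1 had no row.

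Leukocyte markers, which bear on ICAM3 and ITGAX, were incomplete. Microglia and macrophage markers had 5 rows of 10 and summed to 359 to 523 CPM in Myc1, 298 to 424 CPM in Scr1, 244 to 316 CPM in Myc2 and 196 to 299 CPM in Scr2 tumours, mostly from CD68. AIF1, CX3CR1, P2RY12 and CD163 had no row in either table. Of 6 lymphocyte markers only CD2 had a row, at 0.264 to 1.03 CPM in Myc1, 0.172 to 1.33 in Scr1, 1.38 to 3.92 in Myc2 and 0.932 to 7.92 in Scr2 tumours. Astrocyte markers, 4 of 5, summed to 86.2 to 160 CPM in Myc1, 35.7 to 149 in Scr1, 67.9 to 268 in Myc2 and 47.7 to 107 in Scr2 tumours. Pericyte markers overlapped likewise, at 173 to 245 CPM in Myc1, 189 to 314 in Scr1, 154 to 389 in Myc2 and 130 to 261 in Scr2 tumours. The single oligodendrocyte row of 4 did not exceed 1.27 CPM, and none of 6 erythroid markers had a row. The part of these cells in the ICAM values was not tested.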

How the data were processed

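Per the labels' protocols, RNA of integrity number 7.2 or more went to NextSeq sequencing. The submitters' processing notes name bcl2fastq 2.20.0, STAR 2.6.0b and Picard, with builds hg19 and mm10. How reads were counted, whether by strand, and how mouse reads were handled is not given in the sources used here. As deposited by the authors, values are log2 CPM per human gene, 1 table per experiment, read as such because back-transformed values sum to 995054 to 998392 in every library and sorted values coincide between libraries of a table (quantile normalization). A change in total RNA cannot be seen in such values.

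The members and lists were chosen with earlier results of these data known. Genes with at least 1 CPM in 3 libraries (experiment 1) or 4 (experiment 2) were fitted with limma 3.58.1 in R 4.3.3 (trend and robust settings, Benjamini-Hochberg threshold 0.05) on the deposited log2 values. Differences are Myc minus Scr. Library sizes came from steps 2 to 20 of the distinct values (log2 of reads + 0.5). Reads are the rank of a value among its library's steps, and in simulated libraries of 17318 and 18168 genes 100% were exact up to 200 reads. Alternatives were log2(CPM + 0.1), log2(CPM + 1), no filter, 5 CPM, limma without trend and robust settings, equal medians, replicates left out, and, chosen after seeing the data, reads from the steps. The text names the members, 2 to 4 genes per list (those with the largest differences and those that bind or induce a member), and the genes most like ICAM1; the same for ICAM5 and ICAM3 was added once VCAM1 was found to have no row. Some listed genes are not reported here.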

Additional observations from a re-analysis of the deposited data

Results flagged for a closer look

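ICAM3 in Scr1 replicate 3 stood at 5.06 log2 CPM (33.3 CPM), far from the other Scr1 tumours at 22.0 to 22.9 CPM. Its gap to the nearest was 0.896 of the group's range, above Dixon's critical value of 0.829 for 4 samples, which chance passes in about 1 in 20 groups. This library was also the shallowest, at an estimated 3.36 M reads.

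ICAM3 had log2 differences of opposite sign in the experiments, 0.31 for Myc1 minus Scr1, where all 3 Myc1 tumours were above the Scr1 mean, and -0.40 for Myc2 minus Scr2, where all 5 Myc2 tumours were below the Scr2 mean. The difference between the experiments was not tested. Without Scr2 replicates 1 and 4 the second value was 0.14.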

How the results depend on the processing

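Of the values under alternatives, 119 kept their direction and side of the threshold (within 1 SD where there was no test). The sign changed for ICAM3 in experiment 2. The ICAM1 and ICAM5 differences stayed positive under every alternative that gave a value, and at the 5 CPM filter neither gene gave one. With single libraries left out, ICAM1 ranged from 1.40 to 2.41 in experiment 1 and from 1.85 to 3.35 in experiment 2, ICAM5 from 1.01 to 1.96 and from 2.64 to 3.60, and ICAM3 from 0.19 to 0.45 and from -0.62 to -0.10. Reads from the steps gave 1.71 and 2.52 for ICAM1 and 1.50 and 3.14 for ICAM5; log2(CPM + 0.1) gave 1.60 and 1.97, and 1.48 and 2.86. Without Scr2 replicates 1 and 4, ICAM3 was 0.14, against -0.40 with all libraries, and 2 genes were called in experiment 2. The 5 CPM filter called 1 gene in experiment 1, and leaving out single libraries called 0 to 2 in experiment 1 and 0 to 9 (without Myc2 replicate 3) in experiment 2. The ICAM1 and ICAM5 correlation in experiment 1 was 0.71 on log2(CPM + 1), 0.61 without the 2 farthest tumours, and 0.67 (without Myc1 replicate 2) to 0.95 (without Myc1 replicate 1) with single libraries left out; in experiment 2 it was 0.73 without Scr2 replicates 1 and 4, which are also the 2 farthest, and 0.10 (without Scr2 replicate 4) to 0.76 (without Scr2 replicate 1). Fewer tumours allow fewer arrangements; otherwise the cause was not tested. No paired analysis was possible because the labels give the tumours no shared replicate numbers. At 0 to 5 reads in 4 of the 8 Scr tumours, depth limits ICAM1 in single tumours.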
